A study of Mus musculus with 16 samples.

Results

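The 9 genes described here code for transcription factors that mark position along the mouse gut or that are linked to it: the GATA factors Gata4, Gata5 and Gata6, the homeobox factor Pdx1, the cut-homeobox factor Onecut2, the zinc finger factor Osr2, the caudal homeobox factors Cdx1 and Cdx2, and the grainyhead-family factor Tfcp2l1. They were taken by symbol, through the Ensembl identifier of each row, from a table of 55359 genes, and all 9 were found. RNA was sequenced from the duodenum and the ileum of 8 adult male C57BL/6N mice on standard chow, which gave 16 libraries, 4 in each group of tissue and genotype. All 8 mice were homozygous for a floxed Neurog3, the gene that starts the enteroendocrine (hormone cell) fate. In the 4 mutants (NFVCT27, NFVCT38, NFVCT153 and NFVCT190) Villin-CreERT2, a recombinase that tamoxifen switches on and that is made under the control of an epithelial promoter, could delete it. The 4 controls (NF17, NF29, NF32 and NF152) had no Cre, so that an effect of the transgene and an effect of Neurog3 loss cannot be told apart. Tissue was collected 18 weeks after tamoxifen, a time the labels give for both genotypes together without saying separately that controls received it. The layers of the gut wall that were sampled are not stated.

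The gut epithelium is formed from one tube that is divided early into territories by such factors, and the adult epithelium keeps much of this pattern in its stem cells. Gata4 is known as a factor of the proximal small intestine that holds ileal genes down in jejunum, and its relative Gata6 is made along the whole small intestine and the colon. Pdx1 is needed for the pancreas and the rostral duodenum. Cdx2, with Cdx1, gives the intestinal epithelium its identity against the stomach. Osr2 and Tfcp2l1 are less well described in the gut: Osr2 is known from palate, limb and joint development, and Tfcp2l1 from pluripotent stem cells and the kidney collecting duct.

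Pdx1 and Cdx2 are neighbours on mouse chromosome 5, with 0 protein-coding genes between them in the RefSeq annotation of GRCm38.p6, and Tfcp2l1 was the one factor that edgeR called between the genotypes, in the ileum. The bases upstream of their first annotated starts are therefore shown, 5′ to 3′ on the strand of the gene. Each window begins 250 bases before the RefSeq start and ends at the most upstream start given by RefSeq or by the GENCODE M21 annotation. Bases between that end and the RefSeq start are left out, most of all for Pdx1, whose window holds 112 bases. The window of Pdx1 lies at chr5:147269847-147269958 on the plus strand, that of Cdx2 at chr5:147307271-147307499 on the minus strand and that of Tfcp2l1 at chr1:118627695-118627922 on the plus strand, all RefSeq sequence of GRCm38.p6.
Pdx1: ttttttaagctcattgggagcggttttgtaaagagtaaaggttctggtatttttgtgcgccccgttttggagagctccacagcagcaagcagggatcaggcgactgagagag
Cdx2: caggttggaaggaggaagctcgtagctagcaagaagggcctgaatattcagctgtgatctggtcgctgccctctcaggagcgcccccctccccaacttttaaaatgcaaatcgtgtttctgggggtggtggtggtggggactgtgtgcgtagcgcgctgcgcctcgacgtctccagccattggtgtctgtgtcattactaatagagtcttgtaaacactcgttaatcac
Tfcp2l1: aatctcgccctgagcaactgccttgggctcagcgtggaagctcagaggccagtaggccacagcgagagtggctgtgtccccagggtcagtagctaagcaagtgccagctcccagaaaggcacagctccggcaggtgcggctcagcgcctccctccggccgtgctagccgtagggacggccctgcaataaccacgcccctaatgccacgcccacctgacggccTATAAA
Capitals mark the TATA-box letters TATAAA, searched on both strands. They were found in the window of Tfcp2l1, where they begin 28 bases before the RefSeq start, and in neither of the other 2 windows. The window of Pdx1 does not reach that distance from its RefSeq start, so a TATA box there was not searched for. Among 17492 RefSeq promoters, 11.6% hold these letters in a window of the same 228 bases. The letters TTTAT, an AT-rich core bound by caudal factors, overlap that TATA box as ATAAA on the printed strand and were found nowhere else in the 3 windows; 33.0% of promoters hold them in a window as long as that of Tfcp2l1. The GATA letters AGATAA and TGATAA were in none of the 3 windows, which says only that these letters are not there. Windows of 4 of the 9 genes were at hand from RefSeq, and the fourth, of Gata5, is not shown.

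Library totals ran from 8213889 to 35076714 counts. Neurog3 had 8 to 37 counts in each control library and 0 in all 8 mutant libraries. Values are in CPM, read counts divided by library size and put on a common scale with TMM factors over the 16 libraries, and are given as mean ± SD over the 4 animals of a group. The bile acid genes Fabp6 and Slc10a2, which define the ileum, stood at 3020 ± 909 and 1247 ± 254 CPM in control ileum against 0.218 ± 0.153 and 1.63 ± 0.63 CPM in control duodenum, as the tissue labels have it. Genes of pancreatic acinar cells, the enzyme-making cells of the pancreas, took 7.37 to 16.5% of counts in control duodenum and 2.01 to 20.9% in mutant duodenum, against 0.130 to 0.929% and 0.0505 to 0.559% in the ileum (17 genes, 0 of them at 0 in any group). Since several of the 9 factors are also made in pancreas, this share is set beside them below.

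In control mice, 8 of the 9 factors differed between ileum and duodenum in edgeR's quasi-likelihood test with Benjamini-Hochberg adjustment over all genes tested (adjusted p under 0.05). Gata4, Gata6, Pdx1 and Onecut2 were lower in the ileum, and Osr2, Cdx1, Cdx2 and Tfcp2l1 were higher. Of all 14976 genes tested, 35.9% were called, 18.7% lower and 17.1% higher in the ileum, so that a call by itself sets a gene little apart and the size of the difference matters. In mutant mice 7 of the 9 were called, the same 4 lower and Osr2, Cdx1 and Tfcp2l1 higher, where 32.3% of 14950 genes were called, 17.1% lower and 15.2% higher. In bulk tissue, fewer cells of a type and less RNA per cell cannot be told apart.

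**Figure D1:**
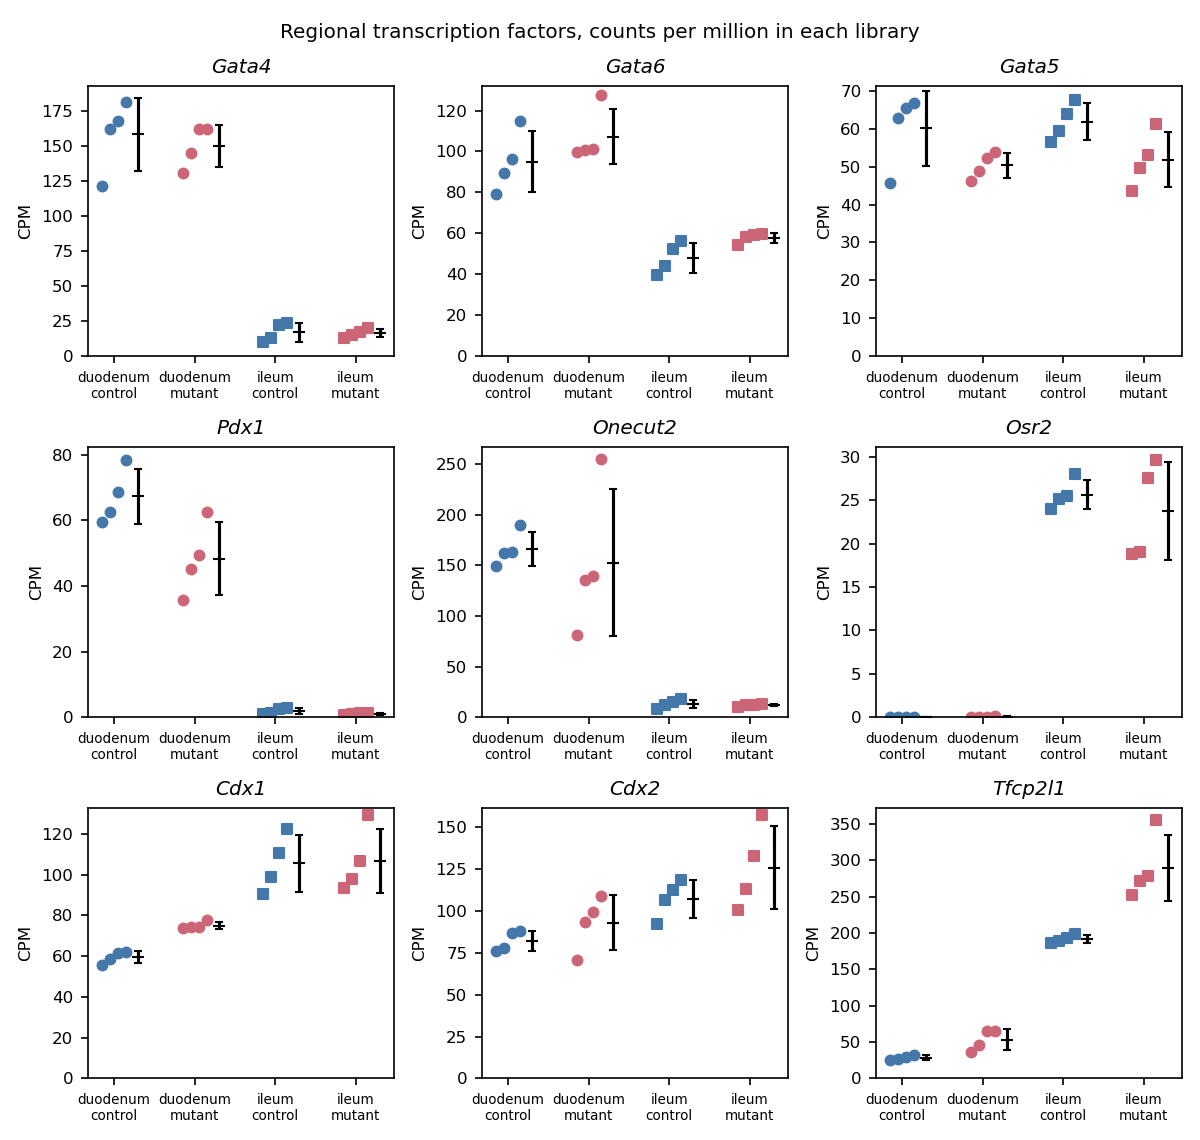
CPM of each factor in each library (points, sorted within a group), with the mean and SD of the 4 animals beside them (black bars); blue is control, red is mutant, circles are duodenum and squares ileum. Gata4, Gata6, Pdx1 and Onecut2 are high in the duodenum, Osr2 and Tfcp2l1 in the ileum, and Gata5 is about level between the tissues within each genotype.

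Pdx1 (ENSMUSG00000029644) had the steepest fall of the factors that were measurable in both tissues. In the duodenum of NF17, NF29, NF32 and NF152 it stood at 62.6, 78.4, 59.6 and 68.6 CPM, and in their ileum at 2.80, 0.983, 2.54 and 1.19 CPM. The mutants NFVCT27, NFVCT38, NFVCT153 and NFVCT190 had 49.5, 45.2, 35.8 and 62.7 CPM of Pdx1 in the duodenum and 0.936, 1.26, 0.674 and 1.23 CPM in the ileum. Every duodenal library was far above every ileal one in both genotypes, and control ileum split into a higher pair, NF17 and NF32, and a lower pair. The mean was 35.8-fold lower in control ileum (log2 fold change -5.13, SE 0.29, adjusted p = 9.54e-07) and 47.1-fold lower in mutant ileum (-5.50, SE 0.24, adjusted p = 7.73e-08). Plut, a long noncoding RNA gene on the opposite strand that overlaps Pdx1, went from 21.6 CPM in control duodenum to 1.29 in control ileum. Reads of both strands cannot be told apart here, because the strand setting of the counting is not given in the sources used here.

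Gata4 (ENSMUSG00000021944) was high and even in the duodenum, with 168, 162, 182 and 122 CPM in controls NF17, NF29, NF32 and NF152 and 145, 162, 131 and 162 CPM in mutants NFVCT27, NFVCT38, NFVCT153 and NFVCT190. In the ileum of the same animals Gata4 was 23.7, 9.92, 22.4 and 13.3 CPM in controls and 13.2, 20.2, 17.4 and 15.4 CPM in mutants. The tissues did not overlap, and the genotypes did within each tissue. Gata4 was 9.13-fold lower in control ileum (log2 fold change -3.18, SE 0.29, adjusted p = 6.70e-05) and 9.06-fold lower in mutant ileum (-3.20, SE 0.15, adjusted p = 1.50e-07). Within single animals the duodenal level exceeded the ileal one 7.09- to 16.4-fold in controls.

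Gata6 (ENSMUSG00000005836) had a shallower slope than Gata4. It stood at 96.3, 115, 89.6 and 79.3 CPM in control duodenum and at 52.4, 39.9, 56.1 and 43.9 CPM in the ileum of the same 4 animals. Mutant duodenum had 128, 101, 101 and 99.5 CPM of Gata6 and mutant ileum 59.0, 59.7, 58.4 and 54.3 CPM. No ileal library reached the lowest duodenal one. Gata6 was 1.98-fold lower in control ileum (log2 fold change -0.98, SE 0.14, adjusted p = 0.000133) and 1.85-fold lower in mutant ileum (-0.91, SE 0.11, adjusted p = 0.000142).

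Gata5 (ENSMUSG00000015627) was the GATA factor without a called slope. Its levels were 66.7, 62.7, 65.3 and 45.5 CPM in control duodenum and 67.6, 59.4, 63.7 and 56.4 CPM in control ileum, and the libraries of the tissues overlapped. The log2 difference was 0.05 in controls (95% interval -0.23 to 0.32, adjusted p = 0.802) and 0.02 in mutants (-0.25 to 0.28, adjusted p = 0.921). A fold of about the size seen for Gata6 lies outside both intervals. Scaled on 9 epithelial marker genes instead of all genes, which moved the median of all genes to -0.34 in the control comparison, Gata5 came to -0.30 with an adjusted p of 0.0477, close to that median.

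Onecut2 (ENSMUSG00000045991) followed Gata4 and Pdx1. Control duodenum had 162, 163, 190 and 150 CPM and control ileum 17.7, 8.399, 14.8 and 12.5 CPM. The mutant ileum was close to the control ileum, at 10.2, 12.1, 12.9 and 12.4 CPM of Onecut2. The mutant duodenum was uneven, with 135, 140, 81.8 and 255 CPM in NFVCT27, NFVCT38, NFVCT153 and NFVCT190. Onecut2 was 12.4-fold lower in control ileum (log2 fold change -3.62, SE 0.20, adjusted p = 1.45e-07) and 12.8-fold lower in mutant ileum (-3.70, SE 0.34, adjusted p = 8.77e-05).

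Osr2 (ENSMUSG00000022330) had the largest ratio between the tissues among the 9 factors. The 4 control duodena had 0 counts, and the 4 mutant duodena 3 counts in all, 2 in NFVCT153 and 1 in NFVCT190. In the ileum of NF17, NF29, NF32 and NF152 the level was 25.4, 28.0, 23.97 and 25.2 CPM, and in that of NFVCT27, NFVCT38, NFVCT153 and NFVCT190 it was 18.8, 19.1, 27.5 and 29.6 CPM. Against a floor of 3 counts over the group, Osr2 was at least 444.4-fold higher in control ileum (1878 counts), and at least 286.8-fold with the duodenum of NF152 left out. In mutants the ratio of ileum to duodenum was 587 (1262 against 3 counts, 95% exact binomial interval 200.5 to 2852) and came to 925 without the duodenum of NFVCT153. Both ratios pool the counts of the 4 animals of a group, so the interval leaves out the spread between animals. Libraries were amplified by PCR, so reads may not be independent, which the interval leaves out too. The floor is a fixed count and not a measure of error. Markers of smooth muscle and of fibroblasts were also higher in the ileum, with summed levels of 2441 to 3530 CPM against 882 to 2025 for 8 muscle genes and 1209 to 1457 against 598 to 854 for 7 fibroblast genes in controls. Summed Paneth cell genes (11835 to 16157 CPM against 2983 to 5607) and epithelial genes (10748 to 12769 against 7891 to 9513) were higher in control ileum too. The part of any of these lists in the Osr2 difference was not tested.

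Tfcp2l1 (ENSMUSG00000026380) rose from 26.3, 31.97, 29.98 and 24.6 CPM in control duodenum to 189, 185, 193 and 198 CPM in control ileum. The ileal libraries lay within a narrow band, 6.78-fold above the duodenal mean (log2 fold change 2.77, SE 0.11, adjusted p = 2.03e-09). In mutants Tfcp2l1 was 65.2, 64.9, 36.2 and 46.1 CPM in the duodenum and 355, 271, 253 and 279 CPM in the ileum, a 5.45-fold difference (2.42, SE 0.20, adjusted p = 9.29e-06). Every one of the 8 animals had more in its ileum, 5.80- to 8.04-fold in controls and 4.17- to 6.98-fold in mutants.

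The caudal factors rose toward the ileum by less. Cdx1 (ENSMUSG00000024619) stood at 61.7, 58.7, 61.9 and 55.5 CPM in control duodenum and at 110, 122, 98.7 and 90.6 CPM in control ileum, with no overlap. The difference was 1.78-fold in controls (log2 fold change 0.83, SE 0.11, adjusted p = 8.34e-05) and 1.42-fold in mutants (0.49, SE 0.12, adjusted p = 0.00835). Mutant libraries had 73.7, 74.3, 74.2 and 77.7 CPM of Cdx1 in the duodenum and 129, 93.4, 98.0 and 107 CPM in the ileum. Scaled on the epithelial markers, which put the median of all genes at -0.16, the mutant difference of Cdx1 was no longer called (0.32, adjusted p = 0.275).

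Cdx2 (ENSMUSG00000029646) had the smallest called difference in controls. Control duodenum had 87.9, 77.7, 86.7 and 76.1 CPM and control ileum 106, 119, 92.1 and 113 CPM, which did not overlap although NF32 had only 1.06-fold more Cdx2 in its ileum. The mean was 1.31-fold higher in control ileum (log2 fold change 0.39, SE 0.11, adjusted p = 0.0119), and this call was lost when libraries were scaled on the epithelial markers (0.04, adjusted p = 0.822). In mutants the tissues overlapped, with 70.7, 93.5, 109 and 99.3 CPM in the duodenum and 133, 101, 113 and 157 CPM in the ileum. The mutant difference of Cdx2 did not pass (0.41, SE 0.16, adjusted p = 0.0735), but it did without the duodenum of NFVCT153 (0.52, adjusted p = 0.0465) and in a model of all 16 libraries (0.44, adjusted p = 0.0230).

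**Figure D2:**
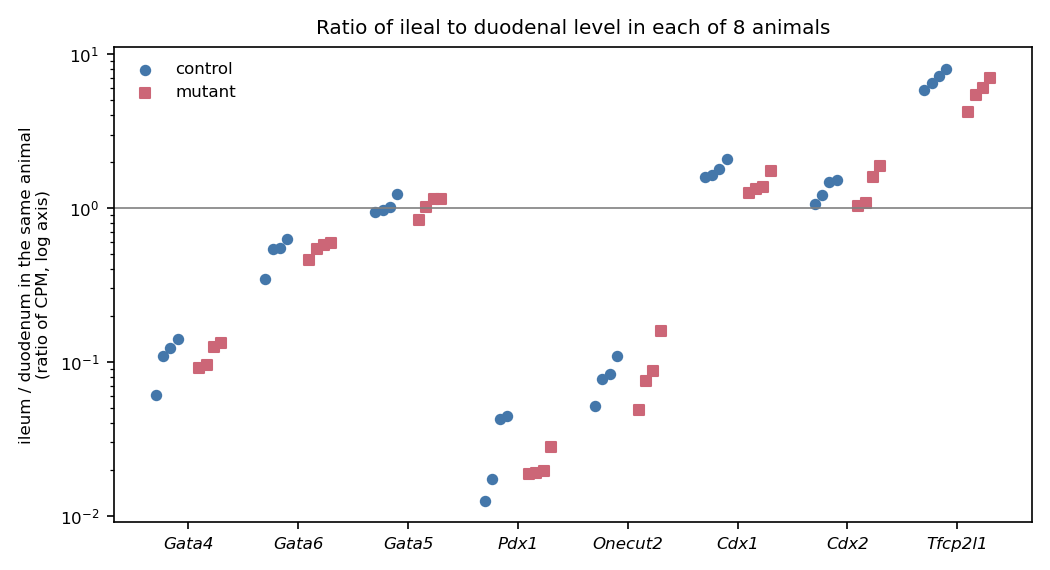
Ratio of the ileal to the duodenal level (CPM, log axis) in each of the 8 animals, with controls as blue circles and mutants as red squares; the line marks equal levels, and Osr2 is left out because 6 duodena had 0 counts. Pdx1, Gata4, Onecut2 and Gata6 lie below 1 in all 8 animals, Tfcp2l1, Cdx1 and Cdx2 above 1 in all 8, and Gata5 on both sides.

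Compared between genes, which needs a scale per length, the factors fell into a different order in each tissue. On CPM per kilobase of annotated exon, Gata4 (40.6 ± 6.6), Cdx2 (36.3 ± 2.7), Cdx1 (34.0 ± 1.7) and Pdx1 (31.2 ± 3.8) led in control duodenum and overlapped within their SD. Gata5 (18.3 ± 3.0) and Gata6 (14.6 ± 2.3) came next and overlapped each other, followed by Onecut2 (10.2 ± 1.0) and Tfcp2l1 (2.99 ± 0.36), each apart from its neighbours. In control ileum Cdx1 (60.3 ± 7.9) and Cdx2 (47.5 ± 5.0) led on the same scale, and their bands met. Tfcp2l1 (20.3 ± 0.6) and Gata5 (18.9 ± 1.5) overlapped, as did Gata6 (7.39 ± 1.15) with Osr2 (7.07 ± 0.46). Gata4 (4.45 ± 1.74) lay below them, and Pdx1 (0.870 ± 0.428) and Onecut2 (0.824 ± 0.243) shared the last place. Exon lengths came from GENCODE M21 on GRCm38, which is not the annotation used for the counts, so the order is approximate.

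The levels of the proximal factors can be set beside the acinar share of the same libraries. In control ileum the 2 animals with the highest acinar share, NF17 and NF32 (0.868 and 0.929%), also had the most Pdx1, Gata4, Gata6 and Onecut2. Mutant ileum had another order for Gata4: NFVCT27 and NFVCT190, with the highest shares (0.559 and 0.549%), had the least (13.2 and 15.4 CPM). Pdx1 was about equal there in NFVCT38, at a share of 0.0822% (1.26 CPM, 20 counts), and in NFVCT190 (1.23 CPM, 23 counts). It was lower in NFVCT27 (0.936 CPM, 8 counts) and NFVCT153 (0.674 CPM, 6 counts). In control duodenum Pdx1 was highest in NF29, at 78.4 CPM with an acinar share of 8.72%. In mutant duodenum Onecut2 was highest in NFVCT190 (20.9% acinar) and lowest in NFVCT153 (2.34%). The level of Pdx1 in the ileum was 1.25 to 4.46% of that in the same animal's duodenum, and the summed acinar genes came to 1.55 to 7.38%, so that the ranges overlap. For Gata4 and Onecut2 the ileal level was 6.12 to 14.1% and 4.88 to 15.8% of the duodenal one, and for Gata6 34.7 to 62.7%. The duodena of NFVCT38 and NFVCT153, with 2.01 and 2.34% acinar counts, had the lowest Pdx1 of the 8 duodena (45.2 and 35.8 CPM). Both are mutants, and mutant NFVCT27, at 13.2% acinar, had 49.5 CPM of Pdx1, also below every control. Among controls, NF17 (16.5% acinar) had 62.6 CPM and NF152 (7.37%) had 68.6 CPM. The duodena of NFVCT38 and NFVCT153 had 162 and 131 CPM of Gata4 and 140 and 81.8 CPM of Onecut2. The 81.8 CPM of NFVCT153 was the lowest duodenal Onecut2. The part of pancreatic RNA in these levels was not tested.

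With the log2 acinar share in the control model, the called factors went from 8 to 2, Osr2 and Tfcp2l1, where 0.407% of all genes were called. When Zg16, an acinar gene that goblet cells also make, was left out of the share, 4 were called, with Pdx1 and Onecut2 added, where 1.36% of all genes were. Control duodenum and control ileum do not overlap in this share, so tissue and acinar share can hardly be told apart in those models. Some lost calls had smaller folds and some did not. The log2 fold change of Gata4 went from -3.18 to -0.995 with the covariate and -1.60 without Zg16, that of Gata6 from -0.98 to -0.17 and -0.37, and that of Cdx1 from 0.83 to 0.93 and 0.97.

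In mutants 6 and 5 factors were called in the same 2 models, where 7.55 and 5.55% of all genes were called. Gata4, Pdx1, Onecut2, Osr2 and Tfcp2l1 were called in both. Mutant duodenum (2.01 to 20.9%) and mutant ileum (0.0505 to 0.559%) do not overlap in acinar share either, so the same limit holds. Cdx1 was not called in either model, at log2 fold changes of 0.65 and 0.75 against 0.49 without a covariate. Gata6 was not called in the second model (-0.86, adjusted p = 0.0581). Without the library with most acinar counts in each group, 8 factors were called in controls, where 23.2% of all genes were called, and 7 in mutants, where 33.2% were. The tissues still did not overlap in acinar share in these fits, so the same limit holds for them. A list of genes of stomach and Brunner glands, the mucous glands of the duodenal wall, also stood higher in control duodenum. Summed over 5 genes it came to 149.5 to 359 CPM, against 2.47 to 15.6 in control ileum. Of the 6 listed genes 1 had counts enough to be tested in controls. Over the 8 duodena the sum had the same order as the summed acinar genes, Zg16 included. It ran from 36.6 CPM in NFVCT38 (22585 CPM acinar) to 481 CPM in NFVCT190 (236316 CPM acinar). The list can thus hardly be told apart from the acinar genes here, and its part was not tested.

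**Figure D3:**
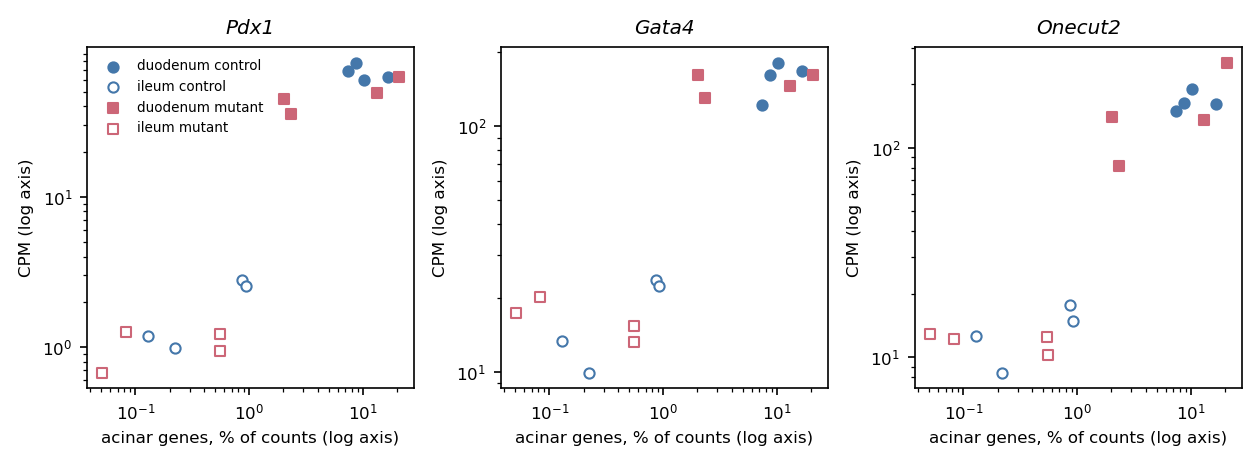
Level of Pdx1, Gata4 and Onecut2 (CPM, log axis) against the share of counts from 17 pancreatic acinar genes (percent, log axis) in each of the 16 libraries; filled symbols are duodenum, open symbols ileum, blue circles control and red squares mutant. The duodenal libraries with the lowest shares, 2.01 and 2.34%, are both mutant and have the lowest duodenal Pdx1 (45.2 and 35.8 CPM). Mutant NFVCT27, at 13.2%, has 49.5 CPM of Pdx1, also below every control duodenum. No ileal library has a share above 0.929%.

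Between genotypes, 1 factor rose in the ileum. In the ileum Tfcp2l1 rose 1.51-fold, from 191 ± 5 CPM in controls to 289 ± 45 in mutants (log2 fold change 0.57, SE 0.11, edgeR adjusted p = 0.0122), and the lowest mutant library, at 253 CPM, was above the highest control, at 198. It was the 1 member called of 9, where 3.28% of 14951 genes were called. The call held in each fit with 1 library left out (log2 fold change 0.46 to 0.63, adjusted p up to 0.0457). It was lost without the ileum of NF17 and NFVCT27, which had the most acinar counts of their groups when Zg16 is included (0.45, adjusted p = 0.0949), and in a model of all 16 libraries (0.60, adjusted p = 0.0523).

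Several marker lists separated the genotypes in the ileum beside Tfcp2l1. Genes of enteroendocrine cells, which need Neurog3 to form, summed to 3.15 to 5.50 CPM in mutants against 123 to 181 in controls. Smooth muscle genes summed to 4171 to 5840 CPM in mutants against 2441 to 3530 in controls, and crypt stem cell genes to 275 to 391 CPM against 613 to 796, although the median over the 4 crypt genes was -0.38 and 1 of them was called. T cell genes came to 6.52 to 20.2 CPM against 22.8 to 32.3. Each of these 4 lists was without overlap, with an exact permutation p of 0.0286 (two-sided), the smallest that 4 against 4 allow, and did not pass over 26 tests (adjusted p = 0.124). Epithelial genes overlapped, at 11483 to 13845 CPM in mutants and 10748 to 12769 in controls, and scaling on them kept the Tfcp2l1 call (0.53, adjusted p = 0.0382). The part of the other lists in the difference was not tested.

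In the duodenum edgeR called 0 of the 8 factors tested, Osr2 being too low to enter, where 0.394% of 14703 genes were called. At an unadjusted p under 0.05 there were 3, Pdx1, Cdx1 and Tfcp2l1, as were 8.71% of all genes. DESeq2 called 2 of them, Cdx1 and Tfcp2l1 (adjusted p = 0.0319 and 0.00231), and 2.11% of all genes, and limma-voom 0 of them and 0.367% of all genes. Tfcp2l1 averaged 53.1 ± 14.4 CPM in mutants and 28.2 ± 3.4 in controls without overlap (1.88-fold, log2 fold change 0.91, SE 0.19, 95% interval 0.49 to 1.32, edgeR adjusted p = 0.0745), and it was called without the duodenum of NFVCT153 (1.06, adjusted p = 0.0156). Cdx1 was also without overlap, at 73.7 to 77.7 CPM in mutants and 55.5 to 61.9 in controls (1.26-fold, 0.33, SE 0.09, 95% interval 0.13 to 0.53, edgeR adjusted p = 0.21). On epithelial marker scaling, which put the median of all genes at -0.23, both differences were smaller. Tfcp2l1 came to 0.65 and Cdx1 to 0.11 (edgeR adjusted p = 0.181 and 0.799). Mutant Pdx1 averaged 48.3 ± 11.1 CPM against 67.3 ± 8.3 (log2 fold change -0.49, SE 0.16, edgeR adjusted p = 0.324), and NFVCT190 lay within the control range. In the same duodena enteroendocrine genes summed to 3.45 to 15.8 CPM in mutants against 247 to 381 in controls, and T cell genes to 11.9 to 25.4 against 33.6 to 47.4. Both lists were without overlap (exact permutation p = 0.0286, adjusted p = 0.124 over 26 tests), and their part in the differences was not tested. Epithelial genes overlapped, at 7575 to 13183 CPM in mutant duodenum and 7891 to 9513 in control duodenum, and 8 of 9 had a log2 fold change above 0.

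The remaining factors gave genotype differences whose intervals reach or nearly reach 0. In the ileum Gata5 and Pdx1, like 15.8% of all genes, were at an unadjusted p under 0.05 but did not pass (log2 fold changes -0.28 and -0.86, edgeR adjusted p = 0.262 and 0.283). Pdx1 was low there, at 1.03 ± 0.28 CPM in mutants and 1.88 ± 0.92 in controls, on 6 to 78 counts a library. For Gata4 the interval of the log2 difference was -0.40 to 0.23 in the duodenum and -0.68 to 0.51 in the ileum, for Onecut2 -0.77 to 0.51 and -0.60 to 0.22, and for Cdx2 -0.12 to 0.47 and -0.07 to 0.49. Both sides of 0 lie within each of these intervals. Gata6 and ileal Osr2 had log2 differences of 0.24 (adjusted p = 0.339) and -0.13 (adjusted p = 0.772) in the ileum.

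**Figure D4:**
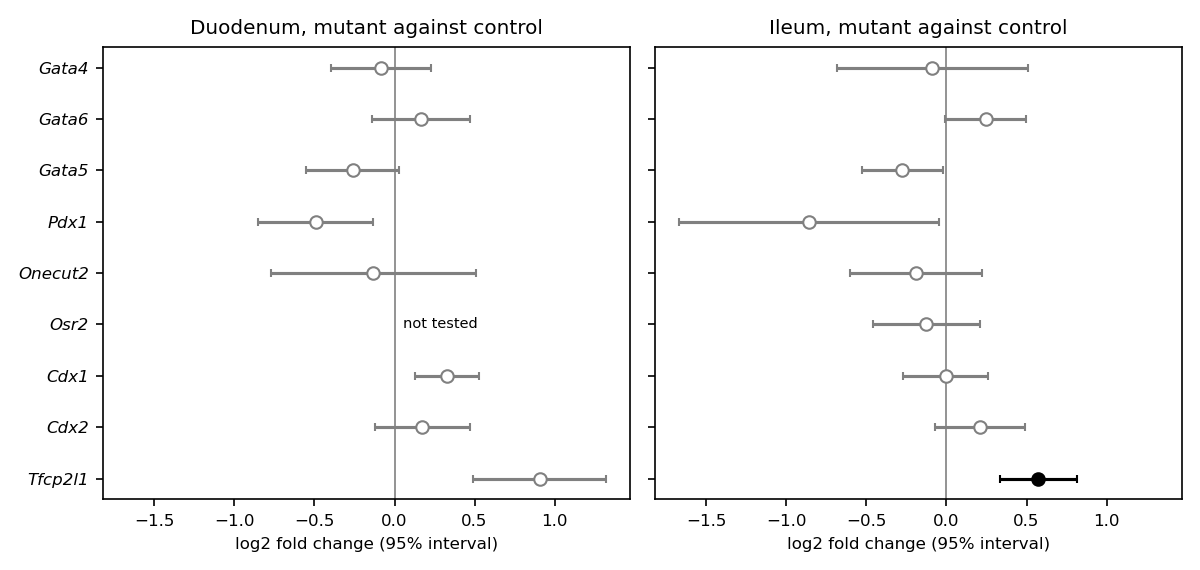
Log2 fold change of each factor between mutant and control (points) with its 95% interval (bars), in the duodenum (left) and the ileum (right); a filled point marks an adjusted p under 0.05. Tfcp2l1 lies to the right of 0 in both tissues, at 0.91 and 0.57, and is filled in the ileum only.

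Whether genotype acted differently in the tissues was tested as an interaction over the 16 libraries. EdgeR called 0 of the 9 factors, where 0.0441% of 15882 genes were called, and 0 stood at an unadjusted p under 0.05, where 4.41% of genes did. DESeq2 and limma-voom also called 0 of them, and 0.239 and 0.0378% of all genes. For Tfcp2l1 the effect in the ileum minus that in the duodenum was -0.32 (SE 0.23, 95% interval -0.79 to 0.16), and for Cdx1 it was -0.32 (SE 0.16, -0.65 to 0.01). The call of Tfcp2l1 in one tissue and not the other is thus not a shown difference between tissues. The genotype and tissue comparisons share libraries, so their values stand side by side and are not independent.

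The genes whose profile lay nearest to each factor were found by the root mean square difference of centred log2(CPM + 1) over the 16 libraries, a description without a test, among 13286 genes. Nearest to Gata4 were Prdm16 (0.24) and Zfpm1 (0.26), where the profile of Gata4 itself spread by 1.60, and nearest to Onecut2 were Prdm16 (0.28) and Gata4 (0.34). Osr2 was nearest to the nucleotide receptor gene P2ry4 (0.13) and the posterior homeobox gene Hoxb9 (0.16), against a spread of 2.32. Hoxb9 stood at 0.0232 CPM in control duodenum and 24.2 CPM in control ileum. Tfcp2l1 was nearest to P2ry2 (0.32), another nucleotide receptor gene, and Samd5 (0.33), and Pdx1 to the transporter gene Slc16a9 (0.42) and to Reg1 (0.50), a gene known from pancreas. For factors of small spread the distances mean less: Gata6 was nearest to Rundc1 (0.13) and Vegfa (0.15), Cdx1 to Bspry (0.12) and Pla1a (0.14), Cdx2 to Fam83e and Rhpn2 (0.15 each), and Gata5 to Atp6v0a2 (0.11) and Trim31 (0.12).

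Cofactors of these families differed between the tissues in both directions. Of 7 tested, 3 were higher and 2 lower in control ileum, where 17.1% and 18.7% of all genes were. In mutant ileum 1 was higher and 2 were lower, where 15.2% and 17.1% of all genes were. Zfpm1, the GATA cofactor also known as FOG1, went from 121 ± 18 CPM in control duodenum to 13.3 ± 2.9 in control ileum (log2 fold change -3.18, SE 0.17, adjusted p = 2.68e-08). Meis2, a partner of homeobox factors, was lower (-1.42, SE 0.13), while Meis1, of the same class, was higher (0.96, SE 0.22). In mutants Zfpm1 (-2.85, SE 0.16) and Meis2 (-1.51, SE 0.38) were again lower, and Meis1 did not pass (0.20, adjusted p = 0.312). Of 11 relatives of the factors 5 had counts enough to be tested in controls, and 1, Ubp1, a relative of Tfcp2l1, was lower in the ileum (-0.38, SE 0.11, adjusted p = 0.0149). Of all genes tested, 18.7% were lower in control ileum. The relatives Tfcp2 and Osr1 did not pass (0.06 and 0.39, adjusted p = 0.793 and 0.473).

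Other factors of the intestinal epithelium split both ways. Of 24, 5 were higher and 8 lower in control ileum (median 0.02, all genes 0.01), and in mutants 4 were higher and 7 lower. Of all genes tested, 17.1% were higher and 18.7% lower in control ileum, and 15.2% and 17.1% in mutant ileum. Nr1h4, the bile acid receptor FXR, had 176 ± 7 CPM in control ileum against 43.7 ± 4.6 in control duodenum (log2 fold change 2.01, SE 0.11, adjusted p = 2.68e-08), and the ETS factor Ehf rose by 1.48 (SE 0.11). Vdr, the vitamin D receptor, and Creb3l3, a liver and gut factor of lipid metabolism, were lower (-1.38, SE 0.12, and -2.07, SE 0.20). By genotype, edgeR called 0 of the 24 in the duodenum, where 0.394% of all genes were called. There 0 stood at an unadjusted p under 0.05, where 8.71% of all genes did. In the ileum Creb3l3 was the 1 called, where 3.28% of all genes were called. At an unadjusted p under 0.05 there were 5 of the 24, where 15.8% of all genes were. Ileal Creb3l3 averaged 155 ± 33 CPM in mutants and 86.4 ± 19.9 CPM in controls (a log2 difference of 0.82, SE 0.18, with an edgeR adjusted p of 0.0362).

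**Figure D5:**
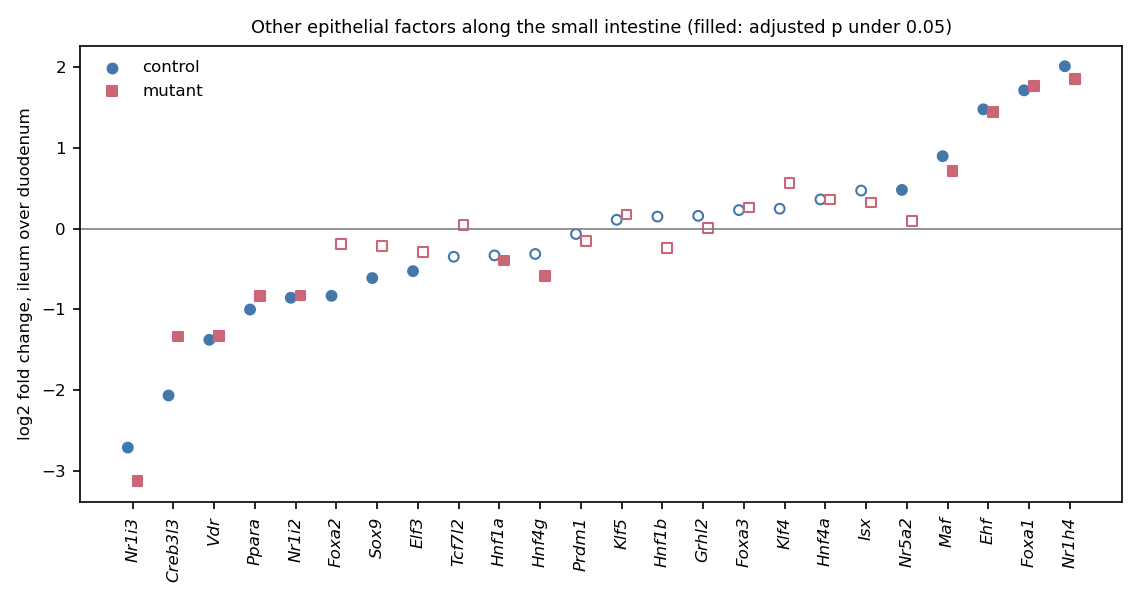
Log2 fold change of ileum over duodenum for 24 other epithelial factors, ordered by the control value, with controls as blue circles and mutants as red squares; filled symbols have an adjusted p under 0.05. Nr1i3, a nuclear receptor of foreign compounds, is lowest in controls at -2.71 and Nr1h4 highest at 2.01.

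The absorptive genes of each region followed the tissue label. All 7 ileal absorptive genes were higher in control ileum (median 4.68) and 5 of 7 in mutants (median 5.97), where 17.1% and 15.2% of all genes were higher. Of 8 tested proximal absorptive genes 6 were lower in control ileum (median -2.19) and 4 in mutants (median -1.56), where 18.7% and 17.1% of all genes were lower. Fabp1, a fatty acid binding protein of the proximal gut, went from 1281 ± 405 CPM to 188 ± 57 (log2 fold change -2.76, SE 0.28), and Slc40a1, the iron exporter, from 723 ± 253 to 97.3 ± 26.0 CPM (-2.89, SE 0.29). None of either list was called between genotypes by edgeR, where 2 of 8 proximal and 1 of 5 ileal genes tested in the duodenum, and 4 of 8 and 3 of 7 in the ileum, stood at an unadjusted p under 0.05. Of all genes tested, 8.71% did so in the duodenum and 15.8% in the ileum, and edgeR called 0.394% and 3.28%.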

How the data were processed

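Total RNA of 16 libraries, from the duodenum and ileum of 8 mice, was sequenced after removal of ribosomal RNA with a strand-marking kit, per the labels' protocols. The tools named in the submitters' processing notes are STAR 2.5.3a, HTSeq 0.6.1p1, Bowtie2 2.2.8, cutadapt 1.10 and bcl2fastq 2.20.0.422, with the build mm39. For the annotation release and the strand setting of the counting, the sources used here give nothing. The deposited table holds raw counts per Ensembl gene, per the file headers and its whole-number values, with no normalization by the authors. A symbol was found for 52083 of 55359 identifiers, and where 68 identifiers shared a symbol with a more abundant one only the latter kept it.

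Counts were tested by the quasi-likelihood F test of edgeR 4.0.16 (R 4.3.3), with TMM scaling, its default filter by group and a robust prior, and Benjamini-Hochberg adjustment over all genes tested, at an adjusted p under 0.05. Each comparison used the libraries of its own 2 groups, and the interaction all 16. CPM values and 95% intervals were computed from the deposited counts. Fitted fold changes of Osr2 between tissues are not printed, because duodenal libraries had 0 counts or nearly so. Alternatives were DESeq2 1.42.0, limma-voom (limma 3.58.1), other scaling, no filter, an acinar covariate, left-out libraries and the animal as a block. The acinar share without Zg16 was added after seeing the data. The code was tested on simulated data.

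The same-numbered libraries come from the same animal, as the labels' animal names show. After subtraction of group means, the correlation between an animal's pair of libraries ran from 0.127 to 0.327 in the 8 animals. In 6 of them it was above that of either library with any other animal's library of the opposite tissue.

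A few list genes are not reported here. The text names all 9 factors, up to 4 genes of smallest p of each pathway list in the comparison described, and the 2 nearest genes of each factor among genes of at least 1 CPM. The 9 factors and the lists were chosen with earlier results of these data known. No 2 libraries of a group agreed within sampling noise.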

Additional observations from a re-analysis of the deposited data

Results flagged for a closer look

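Of 35 groups of 4 libraries examined, 9 factors in 4 groups without the all-zero one, 2 held a library far from the other 3. In mutant duodenum Gata6 was 127.6 CPM in NFVCT27, while the other 3 lay between 99.5 and 101.1 CPM. In the same group Cdx1 was 77.7 CPM in NFVCT190, against 73.7 to 74.3 CPM in the others, a small gap within a tight group. Chance alone marks about 1 in 20 such groups.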

How the results depend on the processing

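The animal as a replicate block, possible where both tissues enter, changed no call: 8 factors were called in controls, 7 in mutants and 0 in the interaction. Between the genotypes in the duodenum, edgeR's count of called factors went from 0 to 1 without the filter on low counts and 1 with all 16 libraries (Tfcp2l1 both times) and to 2 with DESeq2, and ranged from 0 to 1 with 1 library left out. In the ileum it went from 1 to 0 without the libraries of highest acinar share and to 0 with all 16 libraries. Between the tissues in controls it went from 8 to 2 with the acinar share as a covariate, and to 4 with the share without Zg16.

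The recomputed log2 fold changes took in the interaction for Cdx1 and Tfcp2l1 only. Of 663 such values, 614 kept their direction and their side of the threshold. Of the rest, 17 were no longer past it and 7 were newly past it in the same direction. The other 25 changed sign, all 25 of differences that edgeR had not called. 1 of these 25, Gata5 in controls on epithelial scaling, was also newly past the threshold, which makes 8. Scaling on epithelial markers, which moved the median of all genes to -0.23 in the duodenum, gave Gata6 -0.068 and Cdx2 -0.022 there, and Gata5 -0.30 between tissues in controls and -0.13 in mutants. The acinar covariate gave Gata4 0.059 and Cdx1 0.019 in the ileum; without Zg16 it gave them 0.024 and 0.054, and Onecut2 0.0082 in the duodenum. Without the libraries of highest acinar share Gata4 came to 0.19 and Onecut2 to 0.039 in the ileum, and Gata5 to -0.075 between tissues in mutants. With all 16 libraries ileal Cdx1 was 0.016, and without the filter Gata5 in mutants was -0.0036. With 1 library left out, duodenal Onecut2 ranged from -0.50 to 0.077, ileal Gata4 from -0.27 to 0.099, ileal Cdx1 from -0.11 to 0.078, and Gata5 between tissues from -0.065 to 0.097 in controls and -0.065 to 0.096 in mutants. The cause of these shifts was not tested.

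With 4 animals a group, the intervals of the genotype differences limit the precision, and Osr2 in the duodenum and Pdx1 in the ileum rest on few counts. Pancreatic RNA in the duodenal libraries was not removed.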

Other observations

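Some region-marking genes outside the factors had large but uncalled differences between genotypes. Fabp6, the ileal bile acid binding protein, averaged 3020 ± 909 CPM in control ileum and 796 ± 425 in mutant ileum (log2 fold change -1.95, SE 0.46, edgeR adjusted p = 0.0864). Npc1l1, the cholesterol transporter, averaged 323 ± 49 CPM in control ileum and 487 ± 92 in mutant ileum (0.57, SE 0.15, adjusted p = 0.0509). Compared between tissues rather than genotypes, Nkx6-3, a factor of the gastric antrum, was uneven in control duodenum, at 9.86 ± 11.98 CPM. It averaged 0.094 ± 0.165 CPM in control ileum.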
